A study of Mus musculus with 5 samples.

Results

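Genes induced by interferon were examined in KLS cells of mice whose labels give a time of 2 months after recombination in the Mx1-Cre system. KLS cells carry c-Kit and Sca-1 but no lineage markers, and this sorted fraction of the bone marrow holds haematopoietic stem cells and multipotent progenitors. A list of 35 interferon-stimulated genes was matched by symbol to the array's annotation, and a probe set was used where it named 1 of them as its only gene symbol. This gave 50 of the 45037 probe sets, for 33 of the 35 genes and of 18193 genes with a probe set of their own. Isg15 and Ifi44 had no such probe set and were not analysed here. The study measured RNA on Affymetrix mouse arrays, with 3 arrays of Rb family deficient cells (genotype Rb -/- p130 -/- p107-/-) and 2 arrays titled wild type (genotype Rb +/+ p130 +/+ p107+/-), so that the wild type cells lacked 1 copy of the p107 gene. All mice were in the Mx1-Cre inducible system according to the labels, with recombination at 6 weeks of age. The labels call every sample untreated and name no inducing agent, dose, strain, sex or pooling, nor whether the wild type mice carried the Cre. They do not say that arrays came from separate animals, and the spread that the p-values rest on may therefore be technical.

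Interferons are cytokines released when a cell senses virus-like nucleic acid. Type I interferons act through the IFNAR receptor and the kinases JAK1 and TYK2 to assemble STAT2, IRF9 and another STAT protein into a complex that binds the interferon-stimulated response element (ISRE), whereas interferon-gamma acts mainly through the gamma-activated site (GAS). The Mx1 promoter used to drive Cre is itself such a target, and Mx1-Cre is commonly switched on by injecting a double-stranded RNA mimic that makes the mouse release type I interferon. In stem cells interferon is known to cause a passing exit from dormancy. The comparison shows where the levels of these genes stood in both groups 2 months after the labelled time of recombination. It also shows whether they differed with loss of the Rb family, the pocket proteins that restrain entry into the cell cycle.

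Promoter letters of 5 members, picked after their values were seen, are shown. Irf1, Gbp2 and Igtp read lower in deficient cells, though none at an adjusted p under 0.05 in limma. Ifit1 and Irgm1, which like Gbp2 and Igtp hold an ISRE core, had differences of 0.15 and 0.05. The sequences are the 120 bases before the RefSeq gene start (GRCm38.p6), read 5′ to 3′ on the gene's strand, with capitals for the ISRE core (GAAA, any 2 bases and GAAA again, on either strand) and the GAS core (TTCNNNGAA, which reads the same on both strands). They lie at chr11:53769894-53770013 (plus strand), chr3:142620543-142620662 (plus strand), chr11:58199436-58199555 (plus strand), chr19:34640769-34640888 (plus strand) and chr11:48871421-48871540 (minus strand).
Irf1 promoter: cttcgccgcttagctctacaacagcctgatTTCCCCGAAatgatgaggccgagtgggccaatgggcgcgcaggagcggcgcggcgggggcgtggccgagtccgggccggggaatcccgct
Gbp2 promoter: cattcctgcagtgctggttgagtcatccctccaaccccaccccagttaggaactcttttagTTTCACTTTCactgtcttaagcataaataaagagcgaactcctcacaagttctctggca
Igtp promoter: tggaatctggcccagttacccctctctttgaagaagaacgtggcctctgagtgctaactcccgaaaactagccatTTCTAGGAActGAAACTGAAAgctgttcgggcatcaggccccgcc
Ifit1 promoter: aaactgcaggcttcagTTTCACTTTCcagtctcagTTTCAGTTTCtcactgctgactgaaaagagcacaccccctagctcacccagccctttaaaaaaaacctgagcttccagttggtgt
Irgm1 promoter: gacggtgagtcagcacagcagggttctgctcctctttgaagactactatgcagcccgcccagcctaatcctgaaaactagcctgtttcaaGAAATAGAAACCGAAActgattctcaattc
Irf1 held a GAS core, Gbp2 an ISRE core, Igtp both, and Ifit1 and Irgm1 2 ISRE cores each, which overlap in Irgm1. RefSeq promoter entries were found for 28 of the 35 genes, and the 250 bases before each start were searched. An ISRE core was present in 14 of the 28 (50%) and in 3.46% of 27025 genes with an entry. A GAS core was present in 6 of the 28 (21.4%) and in 8.13% of all. Irf9, Ifi35 and Bst2 also read lower on all deficient arrays and are not shown. Irf9 and Ifi35 held neither core in the 250 bases searched, and Bst2 held both. Among members measured on the array, the 13 with an ISRE core had a median log2 difference of -0.16, from -0.93 to 0.16. The 13 without one had 0.04, from -0.86 to 0.53. The ranges overlapped widely, with 8 and 6 genes below 0, and this split was not tested. The 6 with a GAS core, which included Irf1 and Igtp but also Oas1a, Eif2ak2, Ifit2 and Bst2, ran from -0.86 to 0.14. A match is a description of letters in this window and does not show binding.

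The arrays had median intensities of 26.2 to 26.7, and their log2 values correlated pairwise at 0.979 to 0.993. A level below is the log2 intensity minus the median log2 intensity of the same array, so 0 is the median probe set, 1 is 2-fold above it, and values near or below 0 are in the dim range where RMA compresses differences. Values are listed for deficient 1 to 3 and then for wild type 1 and 2. Levels place a probe set on its own array and are not compared between genes. Differences are deficient minus wild type on the log2 scale from limma over all 45037 probe sets, with Benjamini-Hochberg adjusted p. They were fitted on values before the array medians were taken off, which shifts them by -0.02 against the difference of the printed levels. Each gene is described by its brightest probe set. The KLS label was checked against genes of the sort, among which the gene of Sca-1 was not analysed here. Kit, the stem cell factor receptor, read 6.30 ± 0.21 in deficient cells (SD, n = 3) and 6.22 ± 0.17 in wild type cells (SD, n = 2). Cd34 read 7.26 ± 0.26 in deficient cells and 7.21 ± 0.11 in wild type cells. Of the KLS sort list, 5 of 6 genes were measured and none of the 8 probe sets passed the threshold of adjusted p under 0.05 in limma, nor did any have an unadjusted p under 0.05. The lineage-negative label was checked against neutrophil genes. Those measured, other than Itgam, read above the array median on both wild type arrays. Itgam read below the median of all 5 arrays, and Ly6g was not measured. The summed intensity of the 10 measured neutrophil genes was 1331 to 2348 in deficient cells and 49629 to 60664 in wild type cells. The KLS sort genes summed to 8764 to 11188 in deficient cells and 9226 to 10280 in wild type cells. These lists hold different numbers of genes, so their sums are not compared with each other. Whether lineage cells were present was not tested.

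None of the 33 genes passed the threshold. Over the 50 probe sets, 0 were higher and 0 lower at adjusted p under 0.05 (limma), where the background over all probe sets was 0.164% higher and 0.326% lower, so a count of 0 among 50 is near that background. An unadjusted p under 0.05 was reached by 0 member probe sets in the higher direction and by 6 (12%) in the lower, against a background of 7.28% higher and 6.82% lower. The 6 belong to Irf1, Irf9, Igtp, Ifi35 and, with both its probe sets, Gbp2. All deficient arrays lay below both wild type arrays on 8 member probe sets (16%, background 15.2%) and above them on 3 (6%, background 15.4%). The median difference of the 33 genes was -0.04, with 15 above 0 and 18 below, against -0.01 over all 18193 genes. For 28 of the 33 (84.8%) the 95% limma interval lay wholly between -1 and 1, so a change of 2-fold or more is outside it, and the same held for 86.5% of all genes. The 5 whose intervals reached further were Irf1, Gbp2, Igtp, Rsad2 and Oasl2.

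**Figure D1:**
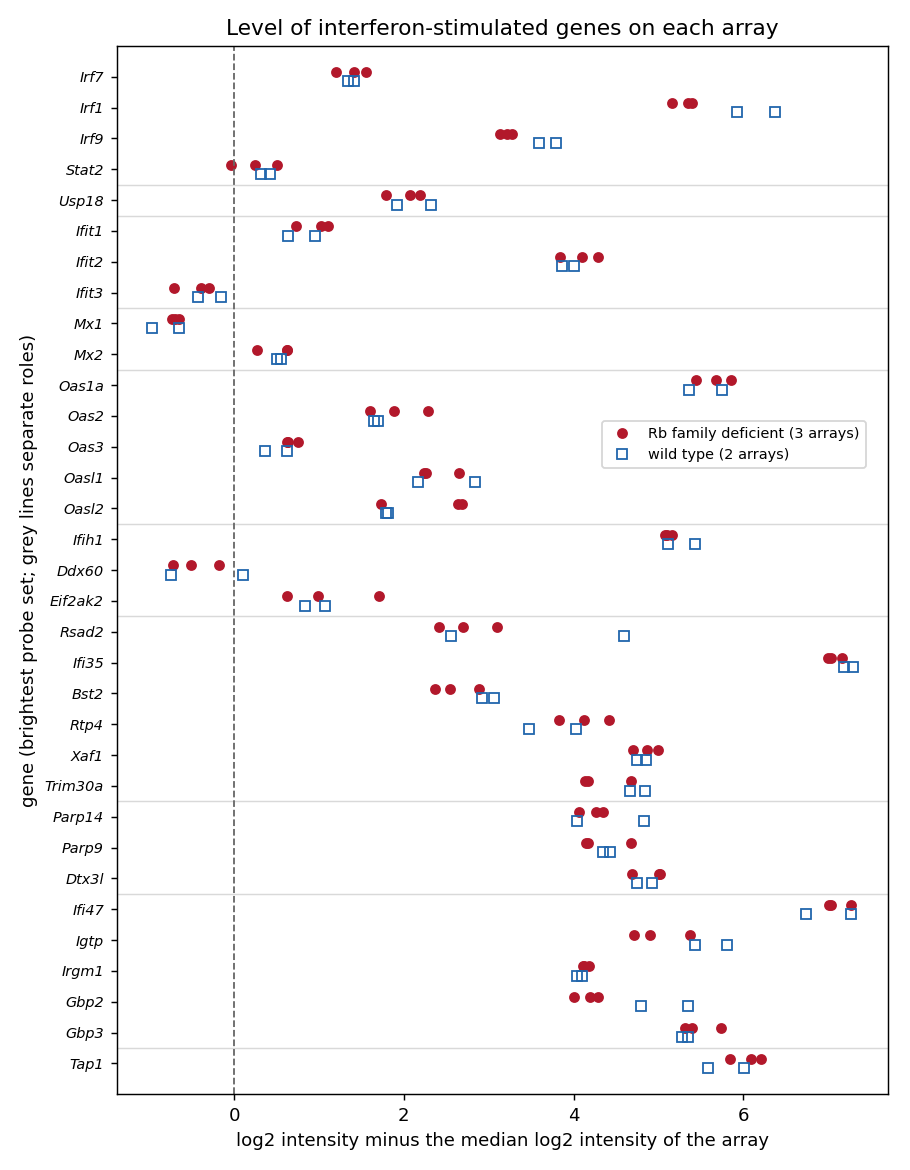
Level of the 33 interferon-stimulated genes on each array (x axis, log2 intensity minus the array's median log2 intensity), with deficient arrays as filled circles above wild type arrays as open squares in each row. Mx1 and Ifit3 lie below the dashed array median on all 5 arrays, and the groups stand apart for Irf1, Irf9 and Gbp2 among others.

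**Figure D2:**
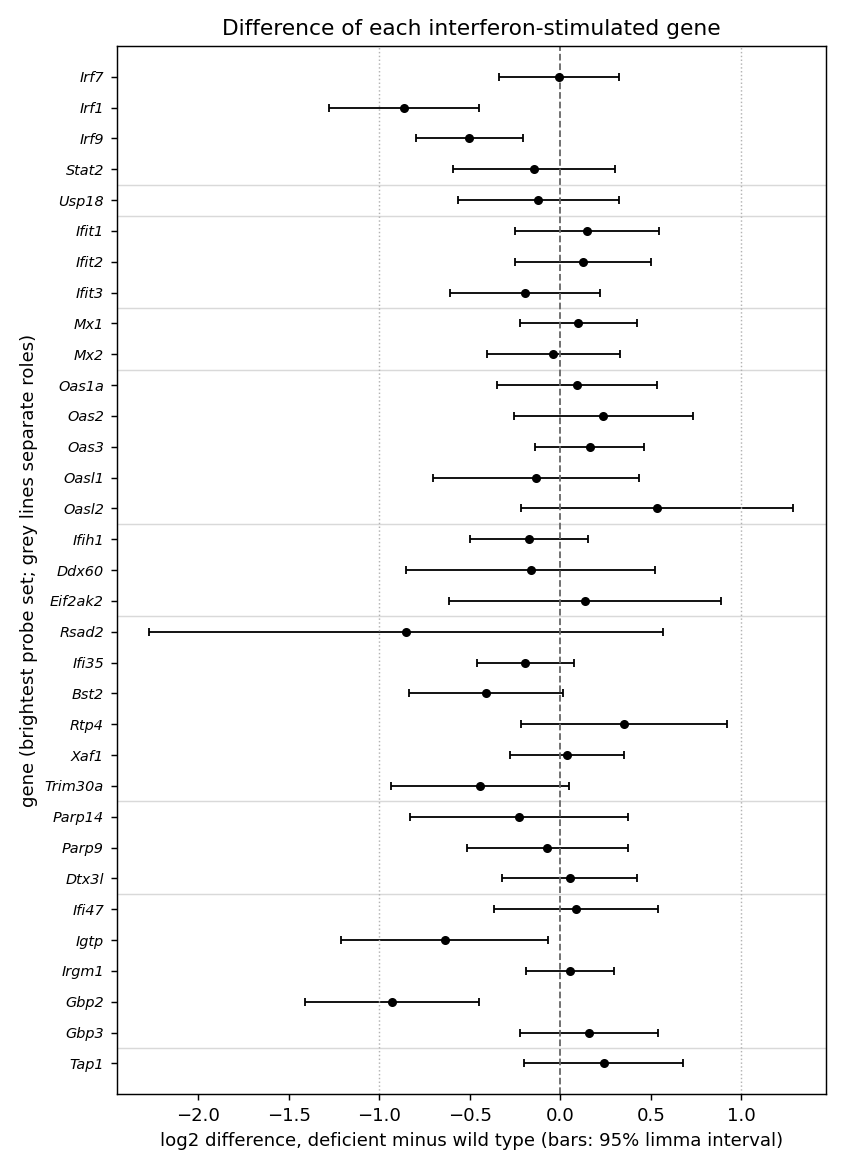
Difference of each gene (x axis, log2, deficient minus wild type) with its 95% limma interval as the bar; dotted lines mark a 2-fold difference either way. The intervals of Irf1, Irf9, Igtp and Gbp2 lie wholly below 0, and that of Rsad2 is the widest.

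Most members read above the array median 2 months after recombination, in both groups. Of the 33 genes, 29 read above the array median on all 5 arrays, 2 below it on all 5 and 2 on either side; over all 18193 genes 60.1% read above on every array. The median level of the 33 genes was 3.82, 4.0 and 3.84 on the deficient arrays and 4.01 and 3.86 on the wild type arrays. The groups overlapped in that measure. In 7 genes (Stat2, Ifit1, Ifit3, Mx1, Mx2, Oas3 and Ddx60) both group means were under 1 above the median, so their differences may be understated. With bulk RNA, fewer cells expressing a gene and less RNA per cell cannot be told apart.

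The MX GTPases, dynamin-like proteins that block the multiplication of viruses, read near or below the array median. Mx1, whose promoter drives the Cre, read -0.73, -0.70 and -0.65 in deficient cells and -0.97 and -0.64 in wild type cells. It was thus below the median of every array, and its groups overlapped (difference 0.10, SE 0.13, adjusted p = 0.831). Mx1 is broken by a deletion in many inbred laboratory strains, and whether these probes lie within the missing part is not given in the sources used here. Mx2 read 0.63, 0.27 and 0.62 in deficient cells and 0.55 and 0.51 in wild type cells (difference -0.04, SE 0.15, adjusted p = 0.953). Deficient 2 was the low array for Mx2, and the others lay close together. For both genes the 95% interval stayed within a 2-fold change: -0.22 to 0.42 for Mx1 and -0.41 to 0.33 for Mx2.

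Among the transcription factors that carry the interferon signal, Irf1 and Irf9 read lower without overlap of the groups, and Irf7 and Stat2 overlapped. Such a lower reading on all deficient arrays was found for 15.2% of all probe sets. Irf1, a factor induced by interferon-gamma that switches on GBP and antigen presentation genes, read 5.16, 5.39 and 5.36 in deficient cells and 6.37 and 5.92 in wild type cells. Every deficient array was below both wild type arrays, by a mean of -0.86 (SE 0.17, 95% interval -1.28 to -0.45), which did not pass over all probe sets (limma adjusted p = 0.103). Without wild type 1, the higher of the wild type arrays, the difference was -0.63, and without wild type 2 it was -1.09. Irf9, the DNA-binding partner of STAT2, read 3.22, 3.13 and 3.27 in deficient cells and 3.79 and 3.59 in wild type cells, again without overlap (difference -0.50, SE 0.12, adjusted p = 0.147). Irf7, which amplifies the type I response and is itself strongly interferon-induced, spanned 1.20 to 1.55 in deficient cells and 1.34 to 1.41 in wild type cells. Its difference was -0.01 before the array medians were taken off (SE 0.14, adjusted p = 0.992), while its mean level was 1.39 in deficient cells and 1.38 in wild type cells, so its sign is not settled. Stat2 lay near the array median, with a difference of -0.15 on its brighter probe set and 0.22 on the other.

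The IFIT proteins bind foreign RNA and halt its translation, and USP18 strips ISG15 from proteins and dampens the type I receptor. Ifit1 read 1.02, 1.11 and 0.73 in deficient cells and 0.95 and 0.63 in wild type cells (difference 0.15, SE 0.16, adjusted p = 0.787). Ifit3 read -0.29, -0.71 and -0.40 in deficient cells and -0.42 and -0.15 in wild type cells (difference -0.19, SE 0.17, adjusted p = 0.714). Ifit2 spanned 3.84 to 4.29 in deficient cells and 3.86 to 4.01 in wild type cells, a difference of 0.13. The groups overlapped for all 3 genes. Usp18 read 2.19, 1.79 and 2.07 in deficient cells and 1.92 and 2.32 in wild type cells, with overlap (difference -0.12, SE 0.18, adjusted p = 0.853). Ifit3 has a near-identical copy in the genome, so its probe set may read both.

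OAS enzymes make a short nucleic acid messenger that activates RNase L, and the OASL proteins are relatives, with OASL1 known in mice to restrain Irf7 translation. Oasl2 read 2.64, 1.73 and 2.69 in deficient cells and 1.82 and 1.79 in wild type cells. Deficient 1 and 3 stood above both wild type arrays and deficient 2 below them, so the difference of 0.53 (SE 0.31, adjusted p = 0.534) was 0.85 without deficient 2. Oas3 read 0.63, 0.76 and 0.62 in deficient cells and 0.37 and 0.62 in wild type cells (difference 0.16, SE 0.12, adjusted p = 0.660). Wild type 1 was its low array, and wild type 2 lay among the deficient ones. The other members differed by 0.24 for Oas2, 0.09 for Oas1a and -0.13 for Oasl1, each with overlapping groups. Oas1a has close copies in the mouse genome that its probes may also detect.

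The RNA sensors and the RNA-activated kinase gave no separation on their brightest probe sets. Ifih1 encodes MDA5, the sensor of long double-stranded RNA, and read 5.16, 5.11 and 5.07 in deficient cells and 5.43 and 5.11 in wild type cells (difference -0.17, SE 0.13, adjusted p = 0.667). Wild type 1 was again high, and wild type 2 lay among the deficient arrays. Ddx60, a helicase gene linked to RNA sensing, read -0.18, -0.51 and -0.72 in deficient cells and -0.75 and 0.11 in wild type cells (difference -0.16, SE 0.28, adjusted p = 0.879). The 2 wild type arrays were its lowest and its highest. Eif2ak2 encodes PKR, which stops translation upon binding double-stranded RNA. It spanned 0.63 to 1.70 in deficient cells and 0.84 to 1.07 in wild type cells, and its 3 probe sets differed by between -0.0037 and 0.37, the highest being one with all deficient arrays above both wild type arrays (adjusted p = 0.375).

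Among the other antiviral genes, Bst2 encodes tetherin, which holds budding virus at the cell surface. It read 2.88, 2.37 and 2.54 in deficient cells and 2.92 and 3.06 in wild type cells, without overlap (difference -0.41, SE 0.17, adjusted p = 0.373). Trim30a, a TRIM family gene with close copies in the mouse, read 4.18, 4.13 and 4.68 in deficient cells and 4.85 and 4.67 in wild type cells. Deficient 3 lay just above wild type 2, so the groups overlapped (difference -0.44, SE 0.20, adjusted p = 0.412). The dimmer Trim30a probe set differed by -0.18, also with overlap. Rsad2, which encodes viperin, was picked out after its values were seen: it read 2.41, 3.10 and 2.70 in deficient cells and 4.60 and 2.56 in wild type cells. Wild type 1 alone was high, and the difference of -0.85 (SE 0.58, adjusted p = 0.614) became 0.17 without it and -1.88 without wild type 2. The dimmer Rsad2 probe sets differed by -0.18 and -0.04. Ifi35 did not overlap on its brightest probe set (7.0 to 7.17 in deficient cells and 7.19 to 7.29 in wild type cells), with differences of -0.19, -0.55 and -0.23 on its 3 probe sets. Only the second of these had an unadjusted p under 0.05 (adjusted p = 0.115), and its name ends in _x_at, which marks probes shared with other transcripts. Rtp4, a chaperone gene for surface receptors, and Xaf1, a pro-apoptotic gene, differed by 0.35 and 0.04 with overlap.

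PARP9 and DTX3L form a complex that modifies proteins with ADP-ribose and ubiquitin, and PARP14 is a related ADP-ribosyltransferase. Parp14 read 4.07, 4.26 and 4.35 in deficient cells and 4.83 and 4.05 in wild type cells, where wild type 1 was again the high array (difference -0.23, SE 0.25, adjusted p = 0.780). Without wild type 1 the difference was 0.17. Parp9 read 4.17, 4.67 and 4.14 in deficient cells and 4.35 and 4.42 in wild type cells (difference -0.07, SE 0.18, adjusted p = 0.920). Both wild type arrays lay within the span of the deficient ones. Dtx3l spanned 4.69 to 5.02 in deficient cells and 4.75 to 4.93 in wild type cells, a difference of 0.05.

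The interferon-gamma-inducible GTPases attack the vacuoles of intracellular microbes. None of the 5 measured passed the threshold, and 2 of the 5 differences were below 0. Gbp2, a guanylate-binding protein gene, read 4.20, 4.0 and 4.28 in deficient cells and 5.35 and 4.80 in wild type cells, with all deficient arrays lower (difference -0.93, SE 0.20, 95% interval -1.41 to -0.45, adjusted p = 0.117). Its other probe set differed by -0.96 (SE 0.19, adjusted p = 0.0999), also without overlap. It was the 1 member probe set under an adjusted p of 0.1, with 0 higher, where the background was 1.10% lower and 1.00% higher. The brighter probe set is an _x_at one, whose probes may match related transcripts. Without wild type 1 the 2 probe sets differed by -0.65 and -0.68, and without wild type 2 by -1.21 and -1.25. Igtp, which encodes the immunity-related GTPase IRGM3, read 4.90, 4.71 and 5.37 in deficient cells and 5.81 and 5.43 in wild type cells (difference -0.64, SE 0.23, adjusted p = 0.301). Deficient 3 lay just below wild type 2, so the groups stood apart by a narrow gap. Gbp3 spanned 5.32 to 5.74 in deficient cells and 5.28 to 5.35 in wild type cells (difference 0.16, SE 0.16, adjusted p = 0.754). Irgm1 spanned 4.12 to 4.18 in deficient cells and 4.04 to 4.10 in wild type cells (difference 0.05, 95% interval -0.19 to 0.30), so that all deficient arrays were higher by a small margin. Ifi47 spanned 7.01 to 7.27 in deficient cells and 6.74 to 7.27 in wild type cells (difference 0.09). Tap1, the peptide transporter that loads MHC class I, read 5.84, 6.21 and 6.10 in deficient cells and 6.01 and 5.59 in wild type cells, with overlap (difference 0.24, SE 0.18, adjusted p = 0.656), and its other 3 probe sets lay below the array median.

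**Figure D3:**
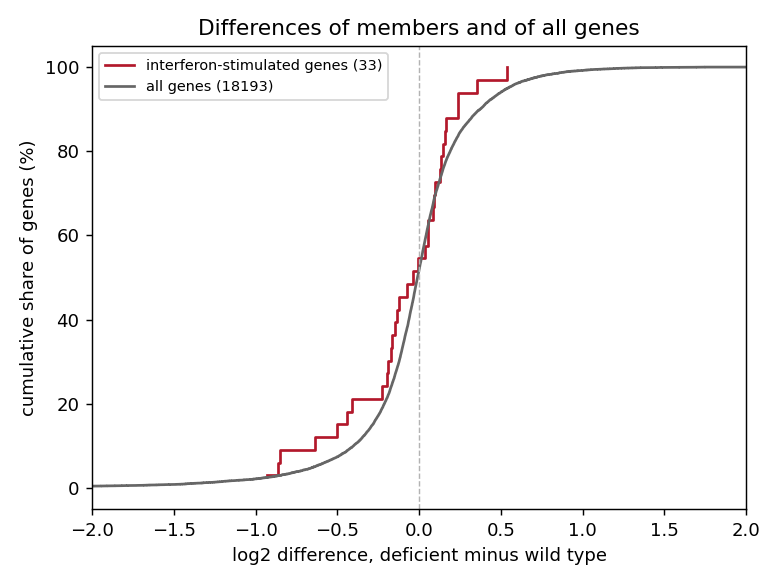
Cumulative share of genes (y axis, %) by log2 difference, deficient minus wild type (x axis), for the 33 interferon-stimulated genes and all 18193 genes, 94 of which lie beyond the axis. The curves cross 0 close together, and the members' lowest and highest values are -0.93 and 0.53.

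The rest of the pathway was described from lists of other genes, whose counts at an unadjusted p under 0.05 stand against 7.28% higher and 6.82% lower over all probe sets. Of 6 measured interferon ligand genes 5 read below the median of every array, and 0 of 6 probe sets passed. At an unadjusted p under 0.05, 1 was higher: Ifnb1, the beta interferon gene, which still lay at -0.48 ± 0.06 in deficient cells and -0.76 ± 0.10 in wild type cells (difference 0.27, adjusted p = 0.347). Ifna4 and Ifna5 differed by -0.14 and 0.20. Of 18 probe sets for the 9 receptor and Janus kinase genes 0 passed and 1 was lower at an unadjusted p under 0.05, Ifnar2, the signalling chain of the type I receptor (4.88 ± 0.03 in deficient cells and 5.29 ± 0.23 in wild type cells, difference -0.42, adjusted p = 0.226). Jak1 differed by -0.25 and Ifngr1, the ligand-binding chain of the gamma receptor, by 0.23.

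Among STAT genes and other IRF genes, 10 of 12 were measured and 0 of 22 probe sets passed, and at an unadjusted p under 0.05 there was 1 with a higher level and 6 with a lower one. Irf8, a factor for monocyte and dendritic cell fate, read 5.74 ± 0.39 in deficient cells and 6.93 ± 0.04 in wild type cells. Its 2 probe sets differed by -1.21 and -1.31 (limma adjusted p = 0.0966 and 0.0634), without overlap. Stat4 differed by -0.83 (adjusted p = 0.134) and Irf3, the constitutive factor downstream of the sensors, by -0.42 on a dimmer probe set. The brightest Irf3 probe set differed by -0.23, and its others by -0.19 and 0.32. Of 23 probe sets of feedback inhibitors 0 passed, and an unadjusted p under 0.05 was found for 5 in the higher direction and 2 in the lower. Cish, a cytokine-induced inhibitor gene of the SOCS family, read 3.53 ± 0.39 in deficient cells and 5.58 ± 0.77 in wild type cells (difference -2.06, SE 0.37, adjusted p = 0.0901), and the phosphatase gene Ptpn11 differed by 0.49 (adjusted p = 0.151). Ptpn2, another phosphatase gene, differed by 0.49 on a probe set below the array median and by 0.35 on its brightest. Of 25 probe sets for nucleic acid sensing genes 0 passed, and an unadjusted p under 0.05 was found for 2 in the higher direction and 6 in the lower. The 2 were those of Cgas, which encodes the sensor of cytosolic DNA (brighter probe set 5.12 ± 0.09 in deficient cells and 4.32 ± 0.19 in wild type cells, difference 0.78, adjusted p = 0.0725). Its downstream adaptor gene Sting1 differed by -0.61 on its dimmer and -0.49 on its brighter probe set, and Zbp1, a sensor gene for Z-form nucleic acid, by -0.60.

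A further list of 60 interferon-induced genes had 50 measured, and 1 of its 94 probe sets fell and 0 rose past the threshold, while 18 lower and 4 higher ones had an unadjusted p under 0.05. The call was the dimmer probe set of Gbp6, another guanylate-binding protein gene, at -1.05, -1.05 and -1.19 in deficient cells and 0.89 and 0.30 in wild type cells (difference -1.71, SE 0.19, adjusted p = 0.0369). It passed in 1 of the 5 fits that leave out an array, that without wild type 2 (adjusted p = 0.0392). The brighter Gbp6 probe set differed by -1.39 (adjusted p = 0.0680). The chemokine gene Ccl5 differed by -2.09 (adjusted p = 0.0510). Uba7, which encodes the enzyme that activates ISG15, differed by -0.86 (adjusted p = 0.102) on its second brightest probe set and by -0.66 on its brightest. Ccl5 also stands in the T and NK cell list and Irf8 in that of plasmacytoid dendritic cells. Zbp1, Dhx58 and Ddx58 stand both in this further list and in that of nucleic acid sensing genes, so their probe sets count in both. The list median was -0.16, with 33 of 50 genes below 0.

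**Figure D4:**
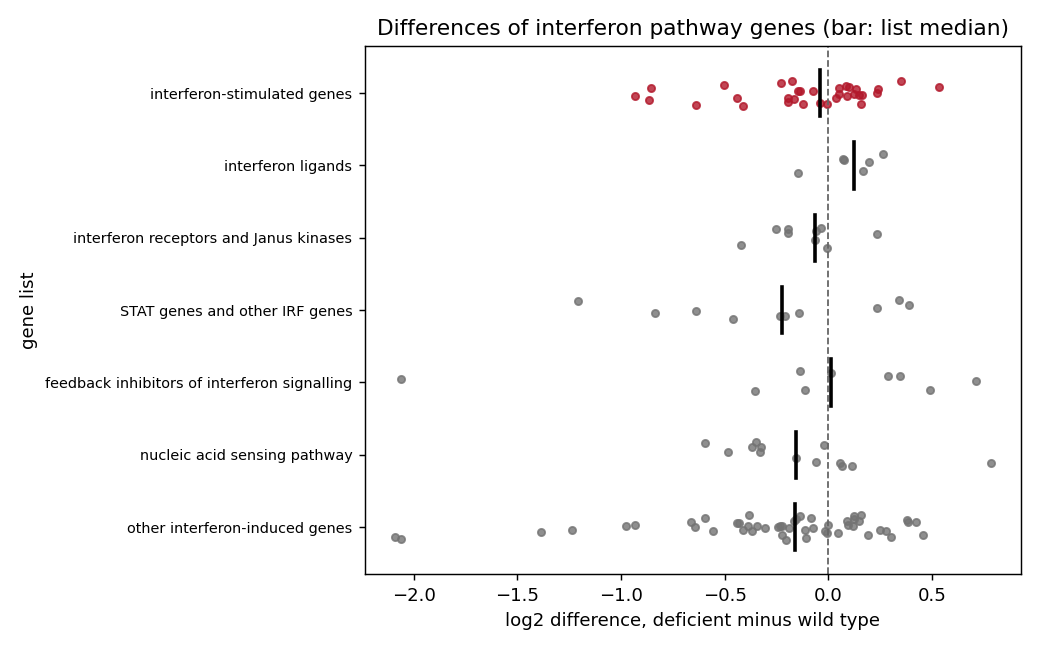
Log2 difference of each gene (x axis, deficient minus wild type; 1 point a gene, brightest probe set) for the 33 interferon-stimulated genes and 6 lists of other pathway genes, with the median of each list as a black bar. List medians run from -0.22 for STAT and other IRF genes to 0.12 for the ligands.

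Transcripts of some other blood cells differed between the groups. Among the members, Irf1, Irf9, Gbp2, Igtp, Ifi35 and Bst2 read lower on all deficient arrays. That was 8 of 50 member probe sets (16%), near the background of 15.2%, and none passed the threshold. Of the 11 probe sets of the 10 neutrophil genes, whose sums are given above, 9 were lower past the threshold. For 9 B cell and plasma cell genes the summed intensity was 1181 to 1283 in deficient cells and 15942 to 28954 in wild type cells, with 4 of 24 lower. The 13 macrophage and dendritic cell genes summed to 2383 to 3031 in deficient cells and 6456 to 8773 in wild type cells (1 of 23 probe sets lower past the threshold, 14 at an unadjusted p under 0.05), and C1qb, Cx3cr1 and Mrc1 among them read below the array median throughout. The 8 plasmacytoid dendritic cell genes, of which Bst2 is also a member here, summed to 2491 to 3248 in deficient cells and 4615 to 5073 in wild type cells, with 2 of 22 lower. The sums of 12 T and NK cell genes overlapped at 2518 to 3176 in deficient cells and 2401 to 2914 in wild type cells, with 1 of 20 probe sets lower past the threshold. Of these 12 genes 11 had a lower mean in deficient cells, with a median difference of -0.70, and an unadjusted p under 0.05 was found for 4 probe sets in the lower direction and 1 in the higher. The median difference of the macrophage and dendritic cell list was -0.72. The sums of 4 erythroid genes overlapped too, at 523 to 1457 in deficient cells and 809 to 1513 in wild type cells, and so did the sums of 8 stromal and endothelial genes, at 182 to 212 in deficient cells and 210 to 216 in wild type cells, each with 0 calls. Among the defining markers, Itgam, Pax5, Pacsin1, Il2rb, Cd2, Ncr1, Alas2, Hba-a1 and 5 of the stromal and endothelial genes read below the median of every array. Without 1 array, between 1 and 8 neutrophil, 4 and 11 B cell and plasma cell, 1 and 2 T and NK cell, 0 and 1 macrophage and dendritic cell, and 0 and 2 plasmacytoid dendritic cell probe sets passed as lower. Among RNA measures, the 18S ribosomal RNA control read 9.79 to 10.37 in log2 in deficient cells and 10.82 to 10.89 in wild type cells, and the 3' minus 5' signal of beta-actin was 3.34 to 3.53 in deficient cells and 3.12 to 3.16 in wild type cells. The same measure for Gapdh overlapped, at 4.45 to 4.87 in deficient cells and 4.57 to 4.71 in wild type cells. The part of these transcripts and of RNA quality in the members' differences was not tested.

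**Figure D5:**
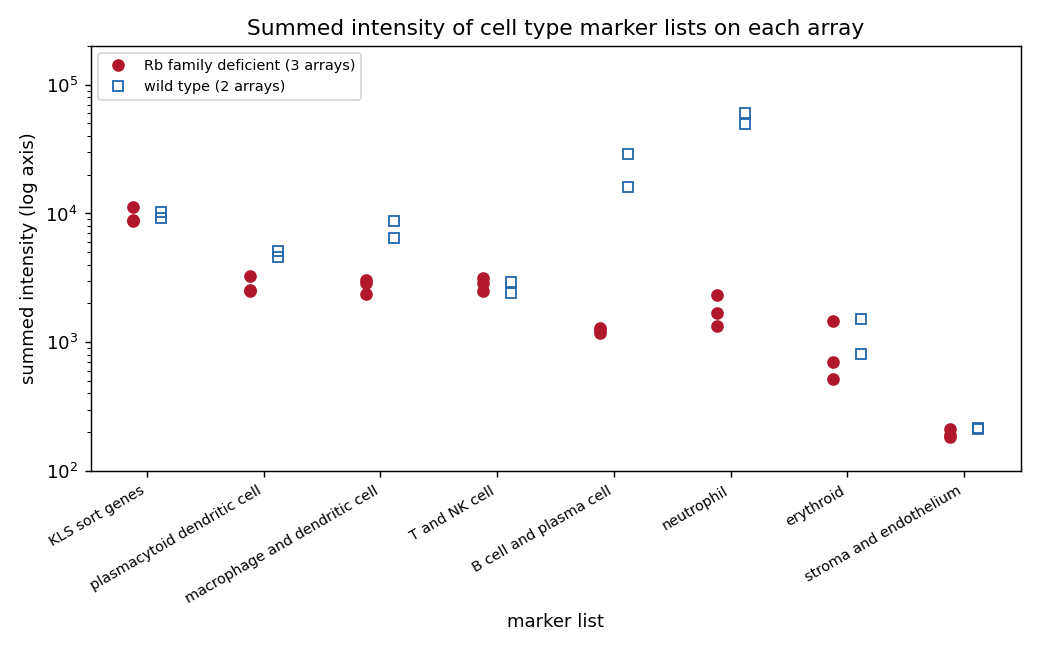
Summed intensity of the measured genes of each marker list (y axis, log scale; brightest probe set of each gene) on every array, with deficient arrays as filled circles left of wild type arrays as open squares. The neutrophil, B cell and plasma cell, macrophage and dendritic cell, and plasmacytoid dendritic cell sums are lower on all 3 deficient arrays, and the KLS sort genes overlap.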

How the data were processed

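Sorted KLS cells of mice gave Trizol-extracted RNA, which was labelled with biotin and hybridised to Affymetrix arrays, per the labels' protocols. The authors deposited 1 intensity per probe set and array, made with RMA, per the submitters' processing notes, which models the probes of all arrays together; the version is not given in the sources used here. The study hybridised 6 arrays and left out 1. RMA sets arrays to a common distribution, so a shift of all transcripts would not be seen, and it compresses dim differences. The deposited values (6.96 to 31249) are linear, and log2 was taken here. Of the probe sets, 34945 had 1 gene symbol, 932 several and 9160 none listed; those with several name no gene here, and 64 control probe sets were left out. For arrays no depth applies: their number limits the precision.

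Differences were fitted with lmFit and eBayes of limma 3.58.1 (R 4.3.3; two-sided) on all 5 arrays without covariates, Benjamini-Hochberg adjusted, threshold 0.05. It was tested on simulated data. The members and lists were chosen with earlier results of these data known. Values on every array are given for Mx1 and, in each of 10 role groups, for up to 2 members. These had the smallest unadjusted p on their brightest probe set. Of other lists, called genes and up to 3 with the smallest p on any probe set are named. Alternatives were between-array normalization, filters, eBayes settings, array weights, the replicate block, leaving out each array, and probe sets per gene.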

Additional observations from a re-analysis of the deposited data

How the results depend on the processing

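The count of member probe sets past the threshold was 0 in each direction in all 16 alternative fits (limma), and the smallest adjusted p of a member there ran from 0.0568 (each gene's probe sets averaged) to 0.239 (without deficient 1). At adjusted p under 0.1 in the reported fit, 1 member probe set, of Gbp2, was lower (background 1.10%) and 0 higher (1.00%). Without 1 deficient array, 5 to 7 member probe sets were lower at an unadjusted p under 0.05 in limma. The share over all probe sets in those fits was not counted, so an excess among members is not shown. The median difference of the members ran from -0.04 to 0.002. Of 284 values of 18 named members under alternatives, 10 changed sign, in genes with differences from -0.23 (Parp14) to 0.15 (Ifit1). Many of the 284 could not change sign. The eBayes settings, the filters and the use of 1 probe set per gene leave a probe set's difference as it was. Leaving out 1 array gave -0.32 to 0.073 for Usp18, -0.017 to 0.31 for Ifit1 and -0.060 to 0.26 for Mx1. It gave -0.10 to 0.085 for Mx2, -0.59 to 0.26 for Ddx60, -0.63 to 0.17 for Parp14 and -0.24 to 0.013 for Parp9. Mx2 was also 0.0067 with array weights, and Parp9 0.013 with the replicate block. Rsad2, not among the 18, changed sign without wild type 1. Among all 45037 probe sets the calls were 74 higher and 147 lower, against 451 and 497 at adjusted p under 0.1, 141 and 260 with an intensity trend, 151 and 257 with 1 probe set per gene, and 129 and 259 with the mean of all. Without 1 array they ran from 2 to 5 higher and 21 to 73 lower. With the replicate number as a block, which the labels do not explain, 0 were higher and 15 lower (0 members); the deviations of same-numbered arrays correlated at -0.05 and -0.02. With 2 wild type arrays, 1 array can carry a member's difference.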

Other observations

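Several members are neighbours in the genome, as ordered in RefSeq (GRCm38.p6). Gbp3 and Gbp2 on chromosome 3 are separated by 1 other protein-coding gene, and differed by 0.16 and -0.93, with Gbp2 lower on all deficient arrays and Gbp3 overlapping. Parp14, Dtx3l and Parp9 are adjacent on chromosome 16 and differed by -0.23, 0.05 and -0.07. Ifit2 and Ifit3 are adjacent on chromosome 19 (0.13 and -0.19), and so are Oasl2 and Oasl1 on chromosome 5 (0.53 and -0.13) and Oas2 and Oas3 (0.24 and 0.16). None of these genes passed the threshold in limma, and the difference between neighbours was not tested.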
